A study of Mus musculus with 6 samples.

Results

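The 10 genes described here encode the nuclear receptors for retinoids, fatty acids, oxysterols and vitamin D: Rara and Rarg (retinoic acid receptors, RAR), Rxra and Rxrb (retinoid X receptors, RXR), Ppara, Ppard and Pparg (peroxisome proliferator-activated receptors, PPAR), Nr1h3 and Nr1h2 (liver X receptors α and β, LXR) and Vdr (vitamin D receptor). They were taken by symbol from a table of 24537 transcripts, 1 per gene, and all 10 were present and tested. The data are RNA-seq levels of regulatory T cells (Tregs, CD4 T cells that restrain immune responses) from the mouse colon. All 6 libraries come from TNBS colitis, in which this hapten was put on the skin (150 µl at 1%) and, 7 days later, given into the rectum (100 µl at 2.5%). There are 3 libraries labelled REV-ERB KO and 3 labelled REV-ERB WT, and the sources used here do not give strain, age, the number of animals, the sorting method, the deleted exons or the cells in which the deletion acts. Levels are in TPM, the authors' transcript abundance unit, which is scaled for transcript length, so levels of different genes can be set side by side.

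Nuclear receptors are transcription factors that small fat-soluble molecules switch on. RAR, PPAR, LXR and VDR each bind DNA as a pair with an RXR, commonly at repeats of a short hexamer, and exchange corepressors for coactivators when the ligand arrives. REV-ERBα, the product of Nr1d1 and the protein in the study's title, is itself a nuclear receptor; it represses transcription, carries no activating function, and can bind a single copy of the same hexamer. In the intestine, retinoic acid favours the formation of Tregs from naive T cells and equips T cells with gut-homing receptors, PPARγ is known in colonocytes and in tissue Tregs, LXRα is prominent in macrophages, and the vitamin D receptor is abundant in the colonic epithelium.

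The hexamer is shown first, because it is the sequence that REV-ERB and these receptors share. AGGTCA was searched on both strands in the 250 bases upstream of the start of the deposited transcript of each receptor. Pparg and Rxra held it, which is 2 of the 10 receptors, against 14% of the 32536 distinct windows of the same length over all RefSeq promoters. The 3 matches follow with their flanks, 5′ to 3′ in the direction of the gene, from RefSeq on GRCm38.p6, with the hexamer or its reverse complement in capitals.
Pparg, chr6:115362328-115362357, plus strand: agggacgcgaggAGGTCAagaaggggcctg
Rxra, chr2:27709193-27709222, plus strand: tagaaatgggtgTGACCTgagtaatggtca
Rxra, chr2:27709232-27709261, plus strand: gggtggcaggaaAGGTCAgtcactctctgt
The match in Pparg begins 9 bases before the start of the deposited transcript and lies inside an exon of another Pparg transcript in the GENCODE M21 annotation. In Rxra the matches begin 87 and 48 bases before the start. The longer form TAGGTCA was present in 0 of the 10 receptor windows and in 2.24% of all windows. Direct repeats of AGGTCA were looked for in the same way, with the hexamer itself counted inside them. The repeat known as DR1, the spacing that PPAR and RXR use, was found in 0 of the 10 windows and in 0.0338% of all windows, and DR4, the spacing that LXR and RXR use, in 0 of the 10 and in 0.0154%. For the receptors with the smallest p values, Pparg and Nr1h3, the parts of these windows that no GENCODE exon covers are printed too, in lower case since neither holds the hexamer.
Pparg, chr6:115362099-115362291, plus strand: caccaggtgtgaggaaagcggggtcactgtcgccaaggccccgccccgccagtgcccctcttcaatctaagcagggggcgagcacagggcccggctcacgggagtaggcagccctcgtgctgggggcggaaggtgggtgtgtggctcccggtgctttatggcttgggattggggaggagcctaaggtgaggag
Nr1h3, chr2:91195152-91195366, minus strand: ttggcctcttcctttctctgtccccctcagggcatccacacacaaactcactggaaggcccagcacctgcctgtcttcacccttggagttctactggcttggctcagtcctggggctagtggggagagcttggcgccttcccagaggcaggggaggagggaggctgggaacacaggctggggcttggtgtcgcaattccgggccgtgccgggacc
A match is a stretch of letters only, and nothing on binding was measured.

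Facts of the libraries that bear on the receptors are these. The depth was 12641843 to 15890621 reads per KO-labelled library and 9794474 to 12122569 per WT-labelled library. Nr1d1, the gene of the deleted protein, stood at 169.2, 154.3 and 141.4 TPM in the KO-labelled libraries and at 66.3, 104.0 and 88.2 TPM in the WT-labelled ones, so its transcript was not lower under the KO label, and directions below follow the labels as given. Its paralog Nr1d2 was at 88.6, 65.2 and 52.6 TPM in the KO-labelled libraries and at 50.4, 70.4 and 62.2 TPM in the WT-labelled ones, with overlap. Which part of Nr1d1 was deleted is unknown here, so reads outside that part would check nothing. The 11 T cell and Treg markers summed to 5503 to 6406 TPM in the KO-labelled libraries and to 7136 to 8087 TPM in the WT-labelled ones, without overlap, and 10 of the 11 were below 0 (median -0.30, 6 at an unadjusted p under 0.05). Among them Foxp3, the defining transcription factor of Tregs, averaged 200.6 TPM in the KO-labelled libraries and 568.4 TPM in the WT-labelled ones, with no overlap. Il2ra (-0.10), Ikzf2 (-0.07) and Tnfrsf18 (0.25), other Treg markers, overlapped between the groups. RNA of epithelium, which sorted Tregs should lack, was present in every library: the 17 epithelial markers, none of them at 0, summed to 4337 to 8822 TPM in the KO-labelled libraries and to 3150 to 4118 TPM in the WT-labelled ones. The 16 markers of macrophages, monocytes and dendritic cells summed to 964.9 to 1779 TPM in the KO-labelled libraries and to 941.9 to 1492 TPM in the WT-labelled ones, so their ranges overlapped, and the 2 most abundant were Lyz2 (334.1 TPM on average in the KO-labelled libraries and 322.6 TPM in the WT-labelled ones) and C1qb (222.1 TPM under the KO label and 202.3 TPM under the WT label). Neutrophil markers summed to 33.0 to 75.9 TPM in the KO-labelled libraries and to 36.3 to 37.9 TPM in the WT-labelled ones. Of the 5 tested, 3 were higher at an unadjusted p under 0.05 (median 1.35), beside 7.8% of all genes tested. Among these 3, S100a8 was at 1.22, 5.57 and 8.57 TPM in the KO-labelled libraries and listed at 0 in each WT-labelled one. S100a8 passed the filter on low values only through the KO-labelled libraries, which fixed its direction, so its place in the count is no support. All 11 fibroblast and smooth muscle markers were above 0 (median 0.31), with 0 at an unadjusted p under 0.05 and overlapping sums of 284.2 to 537.7 TPM in the KO-labelled libraries and 215.2 to 496.3 TPM in the WT-labelled ones. Sums of the endothelial and of the B and plasma cell markers overlapped too. The part of lower T cell RNA, and of RNA from these other cells, in the receptor differences was not tested. Of 13211 genes tested with limma, 0 (0%) passed an adjusted p of 0.05 and 2068 (15.7%) had an unadjusted p under 0.05. Testing the recovered reads with voom also called 0.

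Pparg, Nr1h3 and Ppara were higher in every KO-labelled library than in every WT-labelled library, a direction that the filter on low values fixed for Ppara. Nr1h2, the most abundant of the 10, lay lower in every KO-labelled library by a small amount. In the limma fit 0 of the 10 receptors passed the adjusted threshold (smallest adjusted p = 0.1558). With array weights, which down-weight libraries that fit poorly, Pparg and Nr1h3 passed it (limma adjusted p = 0.03798 and 0.03795), as did 582 of all 13211 genes (4.41%). At an unadjusted p under 0.05, 4 receptors were higher in the KO-labelled libraries (background 7.8% of all genes tested in that direction) and 0 were lower (background 7.86%). Those 4 were Pparg, Nr1h3, Ppara and Vdr, but Ppara passed the filter on low values only through the KO-labelled libraries, which fixed its direction. The groups did not overlap for 3 receptors that were higher (background 10.6%) and for 1 that was lower (background 10.4%) (21% of all genes tested in either direction). Without Ppara, 3 of 9 receptors were higher at that unadjusted p, and the groups did not overlap for 2 that were higher and 1 that was lower. The median difference of the 10, KO-labelled minus WT-labelled on the log2(TPM + 1) scale, was 0.13, beside 0.00 over all genes tested; it was 0.02 without Ppara, 0.05 without KO-labelled library 2 and 0.27 without KO-labelled library 1. In bulk RNA such as this, more cells of a type that expresses a gene and more RNA of that gene per cell cannot be told apart.

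**Figure D1:**
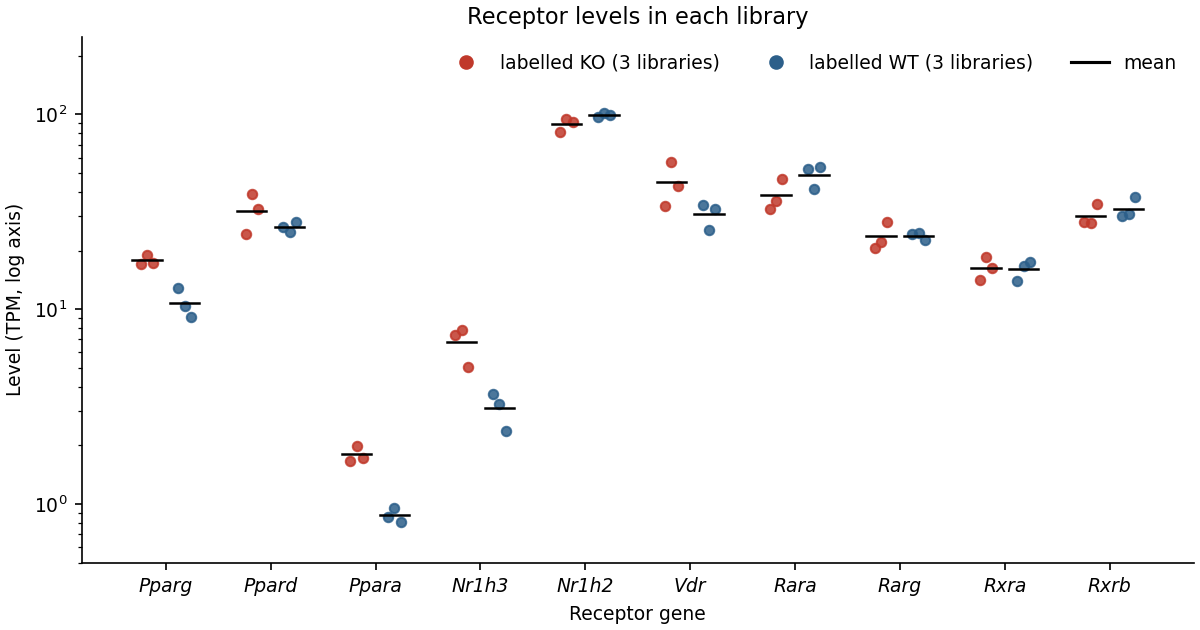
Level of each receptor gene in TPM on a log axis, 1 point per library, with the KO-labelled libraries in red to the left of the WT-labelled ones in blue and the group mean as a line. Points of Pparg, Nr1h3 and Ppara in the KO-labelled libraries all lie above the WT-labelled ones, and Nr1h2 tops the family in both groups.

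PPARγ, encoded by Pparg, binds fatty acids and their derivatives and drives genes of lipid uptake and storage. Its transcript (NM_001308354, mm10 chromosome 6, 115362349 to 115490401, plus strand, protein-coding) was at 17.1, 19.0 and 17.2 TPM in KO-labelled libraries 1, 2 and 3, against 12.8, 10.4 and 9.14 TPM in WT-labelled libraries 1, 2 and 3. Every library labelled KO was above every WT-labelled library, and the spread among the KO-labelled libraries was narrow. The means were 17.8 ± 1.07 TPM under the KO label and 10.8 ± 1.87 TPM under the WT label (SD, n = 3 each), a 1.65-fold ratio. On the log2 scale the difference was 0.68 (SE 0.161, limma adjusted p = 0.1558). The exact two-sided permutation test gave p = 0.1, the smallest that 3 against 3 libraries allow. With any single library left out the difference stayed between 0.58 and 0.81. Behind these values stood 889 reads in the KO-labelled libraries and 411 in the WT-labelled ones.

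PPARα, encoded by Ppara, is the receptor that switches on fatty acid oxidation in liver and muscle. Its row (NM_011144, mm10 chromosome 15, 85735776 to 85806851, plus strand) held 1.67, 1.999 and 1.73 TPM in the KO-labelled libraries and 0.864, 0.956 and 0.807 TPM in the WT-labelled ones. The groups were apart, at 1.80 ± 0.174 TPM under the KO label and 0.876 ± 0.0752 TPM under the WT label (SD, n = 3 each), a 2.06-fold ratio of low levels. Since the filter asked for 1 TPM in 3 libraries, Ppara was tested only because the KO-labelled libraries reached that level, so it had to differ and its place among the tested genes is no support. The fitted difference was 0.58 (SE 0.229, limma adjusted p = 0.2896), which understates the ratio of TPM because the pseudocount of 1 is as large as the level itself. With a pseudocount of 0.1 it was 0.96. When any single library was left out its unadjusted p was 0.06001 to 0.1116.

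PPARδ, the product of Ppard, is the broadly expressed member that also governs fatty acid oxidation. Ppard (NM_011145, mm10 chromosome 17, 28232754 to 28301469, plus strand) stood at 24.2, 39.1 and 32.7 TPM in the KO-labelled libraries and at 26.4, 24.9 and 27.9 TPM in the WT-labelled ones. KO-labelled library 1 lay below all of the WT-labelled libraries and the other two above them, so the groups overlapped. Its difference was 0.24 (95% interval -0.16 to 0.65). It was 0.43 without KO-labelled library 1 and 0.09 without KO-labelled library 2. The transcript shares its span with the 1810013A23Rik row on the same strand, which reached at most 0.739 TPM in any library.

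Summed over the subfamily, PPAR transcripts came to 43.1, 60.1 and 51.7 TPM in the KO-labelled libraries and 40.1, 36.3 and 37.9 TPM in the WT-labelled ones. The sums did not overlap, and Ppard made up most of them in every library. Ppard was 56.3%, 65.0% and 63.3% of the sum in the KO-labelled libraries and 65.9%, 68.7% and 73.8% in the WT-labelled ones, and every share labelled KO was below every share labelled WT. The share of Pparg was 39.8%, 31.6% and 33.3% in the KO-labelled libraries and 32.0%, 28.7% and 24.1% in the WT-labelled ones, and these ranges overlapped. Shares inside a subfamily do not depend on how a library is scaled.

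LXRα, encoded by Nr1h3, senses oxysterols and induces cholesterol export and fatty acid synthesis. Nr1h3 (NM_001177730, mm10 chromosome 2, 91184061 to 91195116, minus strand) stood at 7.40, 7.82 and 5.08 TPM in the KO-labelled libraries, against 3.67, 3.25 and 2.38 TPM in the WT-labelled ones. The groups did not overlap, and the means of 6.77 ± 1.47 TPM under the KO label and 3.10 ± 0.657 TPM under the WT label (SD, n = 3 each) gave a 2.18-fold ratio, the highest among the 10. Its fitted difference was 0.92 (SE 0.235, limma adjusted p = 0.1764, exact permutation p = 0.1), and 0.78 to 1.08 with single libraries left out. The count was small, with 338 reads in the KO-labelled libraries and 120 in the WT-labelled ones.

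LXRβ, the product of Nr1h2, answers to the same ligands and is expressed in most cells, lymphocytes among them. Nr1h2 (NM_001285518, mm10 chromosome 7, 44549616 to 44553965, minus strand) was at 80.9, 94.8 and 91.3 TPM in the KO-labelled libraries and at 97.1, 101.6 and 99.4 TPM in the WT-labelled ones. All values labelled KO were below all values labelled WT, and the gap between the groups was small. The difference of -0.16 (SE 0.097, limma adjusted p = 0.4528) had a 95% interval from -0.39 to 0.06. Nr1h3 thereby supplied 8.37%, 7.62% and 5.28% of LXR transcripts in the KO-labelled libraries and 3.65%, 3.10% and 2.34% in the WT-labelled ones. The total of both LXR genes overlapped between the groups, at 88.3 to 102.6 TPM in the KO-labelled libraries and 100.8 to 104.9 TPM in the WT-labelled ones.

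**Figure D2:**
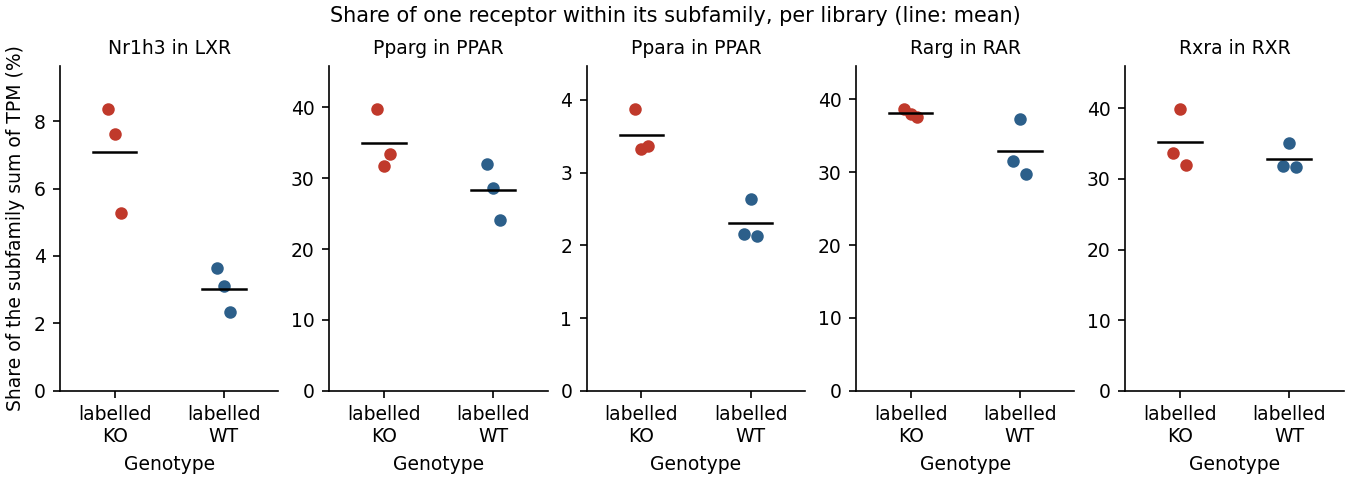
Share of a receptor in the summed TPM of its subfamily in percent, 1 point per library, labelled KO left of labelled WT, with the mean as a line. The Nr1h3 share of LXR transcripts was 5.28% to 8.37% in the KO-labelled libraries and 2.34% to 3.65% in the WT-labelled ones, and the Rxra share of RXR transcripts overlapped between them.

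The vitamin D receptor, encoded by Vdr, is induced in activated T cells and limits inflammatory cytokine genes. Vdr (NM_009504, mm10 chromosome 15, 97854427 to 97908296, minus strand) had 34.0, 57.2 and 43.0 TPM in the KO-labelled libraries and 34.3, 25.6 and 32.6 TPM in the WT-labelled ones. KO-labelled library 1 lay just below the highest one labelled WT, while KO 2 was far above the rest. The means were 44.7 ± 11.7 TPM under the KO label and 30.9 ± 4.61 TPM under the WT label (SD, n = 3 each), with a difference of 0.50 (SE 0.201, limma adjusted p = 0.2944). Without KO-labelled library 2 the difference was 0.31 (limma unadjusted p = 0.1304). That library had the highest summed markers of epithelium, of macrophages, monocytes and dendritic cells, and of endothelium.

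RARα, encoded by Rara, is the main retinoic acid receptor of T cells. Rara (NM_001177303, mm10 chromosome 11, 98939711 to 98974942, plus strand) stood at 32.7, 36.1 and 46.8 TPM in the KO-labelled libraries, against 52.4, 41.3 and 53.6 TPM in the WT-labelled ones. Only KO-labelled library 3 reached into the range of the WT-labelled libraries. The means of 38.5 ± 7.39 TPM under the KO label and 49.1 ± 6.81 TPM under the WT label (SD, n = 3 each) gave a log2 difference of -0.35 (SE 0.166, limma adjusted p = 0.3559), and the exact permutation p was 0.2.

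RARγ, encoded by Rarg, is best known from skin and cartilage. Its row (NM_001042727, mm10 chromosome 15, 102234938 to 102246500, minus strand) held 20.7, 22.1 and 28.2 TPM in the KO-labelled libraries and 24.2, 24.6 and 22.8 TPM in the WT-labelled ones. The values interleaved, with a difference of -0.02 (95% interval -0.36 to 0.31) whose sign changed without KO-labelled library 1 or KO 2, with reads tested by voom and with the epithelial covariate. Rara was the more abundant of the pair in every library, and the Rarg share of RAR transcripts was 38.8%, 38.0% and 37.6% in the KO-labelled libraries and 31.6%, 37.4% and 29.8% in the WT-labelled ones. These shares did not overlap, by a margin of less than 1 percentage point between KO 3 and WT 2. The third gene of the subfamily, Rarb, had 0 reads in the KO-labelled libraries and 2, 2 and 4 reads in the WT-labelled ones. With the 0 set to 3 reads over the group and the WT-labelled reads taken as exact, Rarb was 3.36-fold lower.

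The RXR genes encode the shared partner of all the receptors above, and neither had a difference larger than the spread between libraries. Rxra (NM_001290481, mm10 chromosome 2, 27709292 to 27763319, plus strand) was at 14.2, 18.4 and 16.2 TPM in the KO-labelled libraries and at 14.008, 16.7 and 17.4 TPM in the WT-labelled ones. Rxrb (NM_011306, mm10 chromosome 17, 34031812 to 34038403, plus strand) was at 27.9, 27.7 and 34.6 TPM in the KO-labelled libraries and at 30.1, 30.9 and 37.5 TPM in the WT-labelled ones. The ranges of both genes overlapped between the groups. The 95% interval of the difference ran from -0.34 to 0.38 for Rxra and from -0.45 to 0.20 for Rxrb, and differences inside those bounds are not excluded here. The sign of Rxra turned without KO-labelled library 2 or WT 1, with array weights and with the epithelial covariate, and that of Rxrb with the covariate. Rxrg, the third RXR gene, had 12, 24 and 2 reads in the KO-labelled libraries and 0 in every WT-labelled library. With the 0 set to 3 reads over the group and the KO-labelled reads taken as exact, Rxrg was 10-fold higher.

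**Figure D3:**
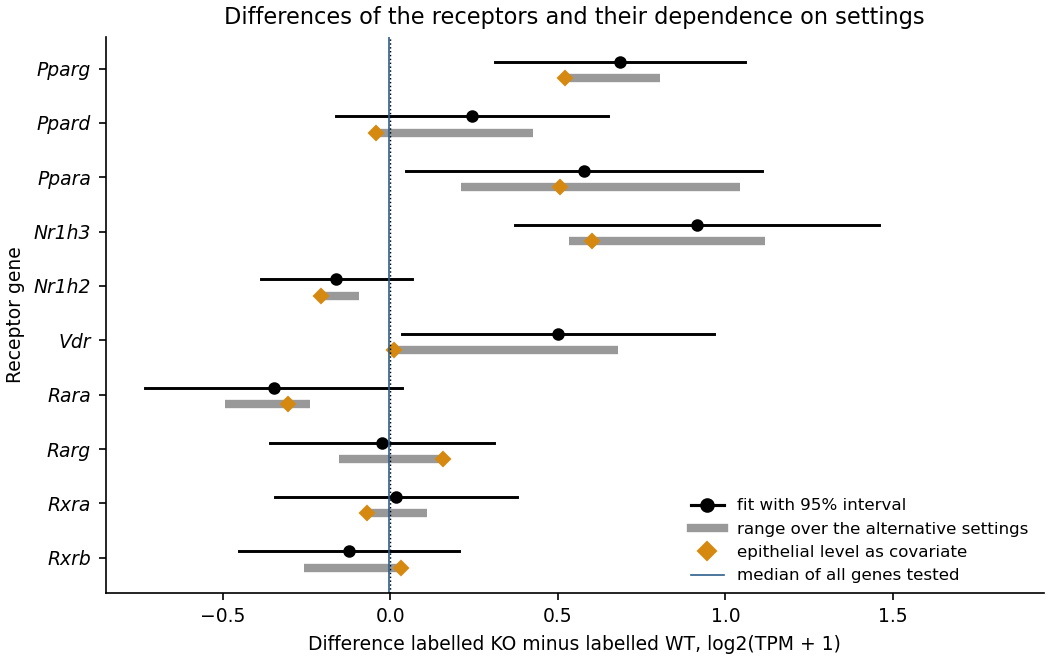
Log2(TPM + 1) difference of each receptor, KO-labelled minus WT-labelled (black point), with its 95% interval from limma (black line), the range over the alternative settings (grey bar) and the value with the epithelial marker level as a covariate (orange diamond); the blue line is the median of all genes tested. Intervals of Pparg, Ppara, Nr1h3 and Vdr, not adjusted for the number of genes, lie above 0, a direction that the filter fixed for Ppara. Of all genes tested, 7.8% were higher at an unadjusted p under 0.05. In the main fit 0 receptors passed the adjusted threshold. With the covariate, whose values did not overlap between the groups, Vdr is at 0.01, Pparg at 0.52 and Nr1h3 at 0.60.

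The order of the levels was similar in both groups. In the KO-labelled libraries it ran Nr1h2, Vdr, Rara, Ppard, Rxrb, Rarg, Pparg, Rxra, Nr1h3, Ppara, and in the WT-labelled ones Nr1h2, Rara, Rxrb, Vdr, Ppard, Rarg, Rxra, Pparg, Nr1h3, Ppara. Nr1h2 stood clear of its neighbour in both groups, and so did Nr1h3 and Ppara at the lower end. Among the KO-labelled libraries the ranges of neighbours from Vdr to Rarg overlapped, as did those of Pparg and Rxra. In the WT-labelled ones the overlapping neighbours were Rxrb with Vdr and Vdr with Ppard. Pparg and Rxra, whose ranges overlapped in the KO-labelled libraries, were apart in the WT-labelled ones, where Rxra was the higher. The summed level of all 10 receptors was 260.8, 324.3 and 316.9 TPM in the KO-labelled libraries and 295.8, 280.3 and 303.6 TPM in the WT-labelled ones, with overlapping ranges.

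Epithelial markers were higher alongside several of these receptors. All 17 were above 0 in the comparison, with a median difference of 0.79, and 11 of the 17 did not overlap between the groups (10.6% of all genes tested in that direction). The most abundant were Lypd8, a secreted colonic antibacterial protein (1622 TPM on average in the KO-labelled libraries and 916.7 TPM in the WT-labelled ones), and Car1, a carbonic anhydrase of colonocytes (982.8 TPM under the KO label and 771.6 TPM under the WT label). With the mean log2 level of these markers as a covariate, the difference of Vdr was 0.01 (SE 0.24) and that of Ppard -0.04 (SE 0.259). The covariate ran from 7.1 to 7.99 in the KO-labelled libraries and from 6.47 to 6.94 in the WT-labelled ones, without overlap. Genotype label and epithelial level can therefore not be told apart in this fit. In the same fit Pparg was at 0.52 (SE 0.252, limma unadjusted p = 0.07855), Nr1h3 at 0.60 (SE 0.359, limma unadjusted p = 0.1372) and Ppara at 0.51 (SE 0.386, limma unadjusted p = 0.2303). There 0 of the 10 had an unadjusted p under 0.05, beside 604 of all 13211 genes, against 2068 genes in the fit without the covariate. Beyond these values, the part of epithelial RNA in the receptor differences was not tested.

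**Figure D4:**
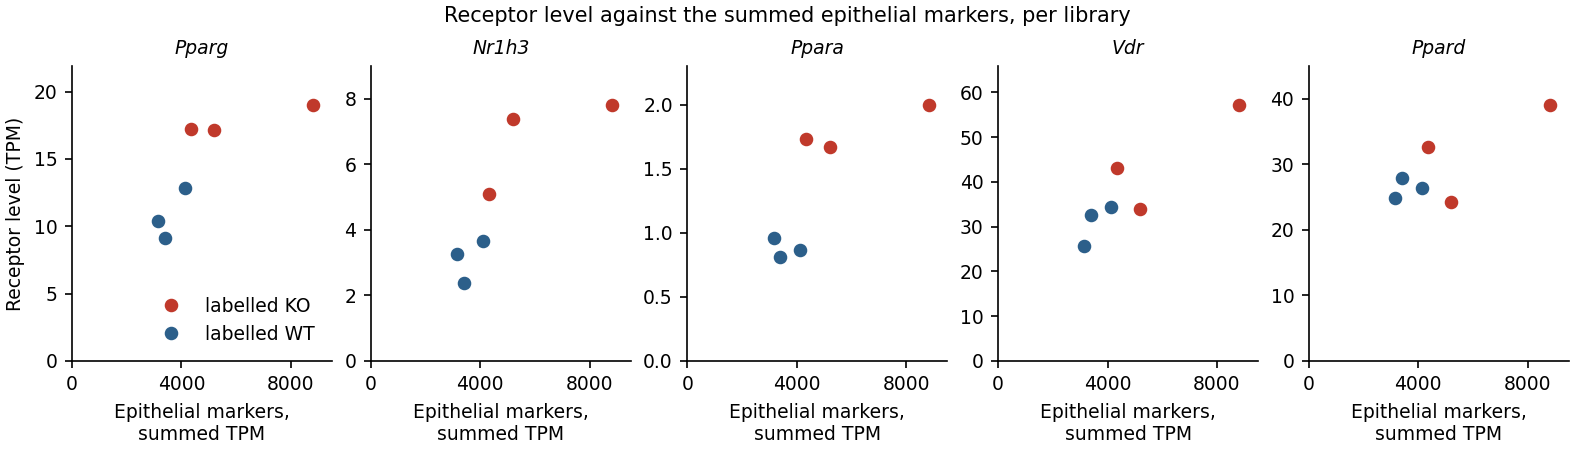
Level of a receptor in TPM against the summed TPM of the 17 epithelial markers, 1 point per library, for Pparg, Nr1h3, Ppara, Vdr and Ppard. KO-labelled library 2, at 8822 TPM of epithelial markers, is the highest for each of the 5 receptors. Its summed markers of macrophages, monocytes and dendritic cells and of endothelium were the highest too.

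Genes of the pathways around the receptors were read from the same fit, and 0 of them passed the adjusted threshold. For the PPAR partners, targets and ligand handling genes, 20 of 22 were tested, with a median difference of 0.22, 15 above 0 and 5 below. At an unadjusted p under 0.05, 3 were higher in the KO-labelled libraries and 0 lower, beside 7.8% and 7.86% of all genes. Acaa2, the last thiolase step of mitochondrial fatty acid oxidation, was at 41.2 TPM on average in the KO-labelled libraries and 31.3 TPM in the WT-labelled ones (0.38, limma adjusted p = 0.2158). Hadha, a subunit of the mitochondrial trifunctional protein, was at 77.7 TPM under the KO label and 64.8 TPM under the WT label (0.26, limma adjusted p = 0.2474). Acadvl, the very long chain acyl-CoA dehydrogenase, was at 68.3 TPM under the KO label and 58.7 TPM under the WT label (0.22). With the epithelial covariate this median was -0.13, with 0 higher and 1 lower at that p, beside 604 of all 13211 genes in either direction. Without KO-labelled library 2 the median was 0.05, with 1 higher and 1 lower, beside 1188 of all genes. Leaving out other single libraries gave 1 higher (without WT-labelled library 2, beside 1095 of all genes) to 5 higher (without KO-labelled library 3, beside 2958).

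Of the LXR targets and oxysterol enzymes 14 of 18 were tested (median 0.09, 10 above 0 and 4 below), and 2 were higher and 0 lower at an unadjusted p under 0.05, beside 7.8% and 7.86% of all genes. Scd2, a fatty acid desaturase, was at 88.9, 118.5 and 127.7 TPM in the KO-labelled libraries and 74.8, 47.7 and 80.3 TPM in the WT-labelled ones, without overlap (0.74, limma adjusted p = 0.2113). Lpcat3, which puts polyunsaturated chains into phospholipids, averaged 26.8 TPM under the KO label and 19.5 TPM under the WT label (0.43, limma adjusted p = 0.2684), and Scd1, another desaturase, 8.66 TPM under the KO label and 5.72 TPM under the WT label (0.55). The 2 cholesterol exporters differed in sign. Abca1 averaged 8.32 TPM in the KO-labelled libraries and 5.68 TPM in the WT-labelled ones (0.45), and Abcg1, chosen after its values were seen, 12.8 TPM under the KO label and 15.7 TPM under the WT label (-0.27), each without overlap between the groups. The median of the list was -0.15 with the epithelial covariate, 0.01 without KO-labelled library 2 and 0.43 without KO-labelled library 3. Single omissions left 1 to 3 genes of the list higher at that p, beside 1095 to 2958 of all 13211 genes in either direction.

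On the retinoid side, the supply and handling genes had 10 of 17 tested (median 0.13, 9 above 0 and 1 below), 0 past an unadjusted p of 0.05 and 0 whose groups did not overlap. Without KO-labelled library 3 the median was 0.29 and 4 were higher at that p, beside 2958 of all 13211 genes in either direction. Without WT-labelled library 3, 1 gene of the list was higher, beside 1410 of all genes. With the epithelial covariate the list median was -0.06, with 0 higher and 0 lower at that p, beside 604 of all 13211 genes. Aldh1a1, which makes retinoic acid, was at 30.2 TPM on average in the KO-labelled libraries and 20.8 TPM in the WT-labelled ones, and Aldh1a3, another such enzyme, at 4.57 TPM under the KO label and 2.20 TPM under the WT label. Rdh10, which oxidises retinol, was at 9.30 TPM under the KO label and 7.00 TPM under the WT label, and Dhrs9 at 1.84 TPM under the KO label and 0.692 TPM under the WT label. Genes known to respond to retinoic acid had both signs among the 7 of 10 tested (median -0.04), with 2 higher and 2 lower at an unadjusted p under 0.05, beside 7.8% and 7.86% of all genes. The median of this list was above 0 without KO-labelled library 2 (0.01) or WT-labelled library 3 (0.06). With the epithelial covariate it was -0.02, with 1 higher and 0 lower at that p, beside 604 of all 13211 genes. Tgm2, transglutaminase 2, a classical retinoic acid target, was at 111.4, 128.3 and 103.2 TPM in the KO-labelled libraries and 65.6, 56.4 and 48.8 TPM in the WT-labelled ones. The groups were well apart, with a difference of 1.00 (limma adjusted p = 0.09097). Cd38, an ectoenzyme also induced by retinoic acid, averaged 25.5 TPM under the KO label and 17.8 TPM under the WT label (0.49, limma adjusted p = 0.2411). The gut-homing chemokine receptor Ccr9 stood at 4.42, 4.62 and 8.86 TPM in the KO-labelled libraries against 8.96, 18.3 and 11.9 TPM in the WT-labelled ones (-1.02, limma adjusted p = 0.2208), and the integrin subunit Itga4 averaged 85.1 TPM under the KO label and 104.7 TPM under the WT label (-0.30, limma adjusted p = 0.2802), both without overlap. Itgb7, the partner of Itga4 in gut homing, overlapped between the groups, at 259.4, 252.2 and 378.3 TPM in the KO-labelled libraries and 374.6, 373.3 and 358.4 TPM in the WT-labelled ones.

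Of the 11 genes of vitamin D supply and response 6 were tested (median -0.12, and 0.08 without WT-labelled library 3), with 1 higher and 2 lower at an unadjusted p under 0.05, beside 7.8% and 7.86% of all genes. With the epithelial covariate the median was -0.45, with 0 higher and 2 lower at that p, beside 604 of all 13211 genes in either direction. Cyp24a1, the enzyme that degrades active vitamin D and a sensitive target of its receptor, had 0 TPM in all 6 libraries, as had Calb1 and Camp. Cyp27b1, which makes active vitamin D, averaged 0.0785 TPM over all 6. Atp2b1, a calcium pump of the plasma membrane, was at 60.2, 68.7 and 61.2 TPM in the KO-labelled libraries against 88.3, 125.8 and 116.8 TPM in the WT-labelled ones (-0.78, limma adjusted p = 0.1295). S100g, the intestinal calcium-binding protein, averaged 1.78 TPM under the KO label and 5.55 TPM under the WT label (-1.28, limma adjusted p = 0.1664), and Cbs, an enzyme of cysteine synthesis, 9.27 TPM under the KO label and 3.79 TPM under the WT label (1.16, limma adjusted p = 0.2057). Trim24, a cofactor of retinoid and vitamin D receptors, averaged 14.8 TPM under the KO label and 16.4 TPM under the WT label (-0.15).

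Coactivators and corepressors, through which all 10 receptors act, were all tested (17 of 17) and lay mostly below 0. Of these genes 15 were below 0 and 2 above, with a median of -0.18 beside 0.00 over all genes, and 4 were lower at an unadjusted p under 0.05, beside 7.86% of all genes. That count was 1 without KO-labelled library 1, beside 1478 of all 13211 genes in either direction, and 1 without WT-labelled library 2, beside 1095. It was 2 without WT-labelled library 3, beside 1410 of all genes, and 6 without WT-labelled library 1, beside 2632. Gps2, a subunit of the NCoR corepressor complex, was at 68.2, 73.0 and 88.5 TPM in the KO-labelled libraries and 91.8, 113.1 and 109.4 TPM in the WT-labelled ones (-0.45, limma adjusted p = 0.2113). Ncoa3, a coactivator of the p160 class, averaged 73.5 TPM under the KO label and 103.9 TPM under the WT label (-0.49, limma adjusted p = 0.2260), and the acetyltransferases Kat2b 14.9 TPM under the KO label and 21.5 TPM under the WT label (-0.49, limma adjusted p = 0.2407) and Crebbp 31.6 TPM under the KO label and 40.9 TPM under the WT label (-0.36, limma adjusted p = 0.2596). With the epithelial covariate the cofactor median was -0.02. In that fit 0 of the cofactor genes had an unadjusted p under 0.05, beside 604 of all 13211 genes.

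**Figure D5:**
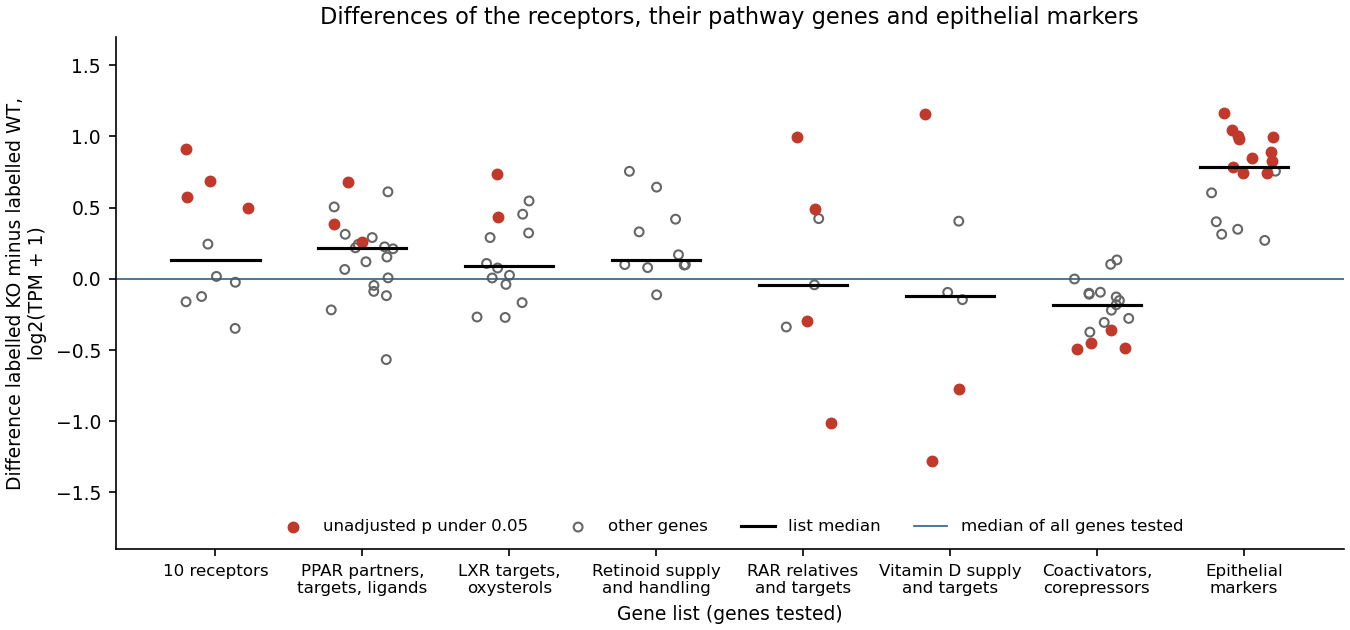
Log2(TPM + 1) difference of every tested gene, KO-labelled minus WT-labelled, for the 10 receptors, 6 lists of pathway genes and the epithelial markers, with red points for an unadjusted p under 0.05, open points for other genes, a black line for each list's median and a blue line for the median of all genes tested. The PPAR list has a median of 0.22, the cofactor list -0.18 and the epithelial markers 0.79.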

How the data were processed

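RNA-seq was deposited for 6 libraries as TPM, per the file headers, in rows of RefSeq transcripts; the authors' values sum to 634200 to 644662 per library. Per the submitters' processing notes the build was mm10 and the tools were STAR 2.5.3a, HOMER 4.9.1, FastQC 0.11.8 and Trim Galore 0.4.4; the sources used here give no order, settings or use of strand. Per the labels' protocols, libraries were made with a stranded mRNA kit. TPM times the deposited transcript length, divided by the value of 1 read in each library, gave reads that were whole to within 0.1 for 99.981% to 99.991% of values of at most 500. Of the nonzero ones 64.9% to 67.3% were even, so reads need not be independent molecules. The limit of 3 reads for a group at 0 covers the counting error of that group only, and not the error of the other group.

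Genes with at least 1 TPM in at least 3 libraries (13211) entered limma 3.58.1 (R 4.3.3) with a variance trend on log2(TPM + 1), genotype as the only term, two-sided, with Benjamini-Hochberg adjustment at 0.05. An exact permutation test of 3 against 3 cannot go below 0.1. The labels do not tie libraries to separate animals; p-values then reflect only library-to-library spread, possibly technical. The fit was also run on simulated reads. Their planted differences were larger than those of the receptors, so that run checked the code only. Python 3.11.15 with matplotlib 3.10.9 drew the figures. The receptors and gene lists were chosen with earlier results of these data known, so the lists get counts and medians only. Named are all 10 receptors, Nr1d1, Nr1d2, Rarb and Rxrg, up to 4 genes of smallest p per pathway list, of which 1 is not reported here, and the 2 most abundant markers of epithelium and of macrophages; Abcg1, Itgb7, Calb1, Camp, Cyp24a1, Cyp27b1, S100a8 and 4 Treg markers were added after their values were seen, as was the receptor count without Ppara. Alternatives were other pseudocounts, filters, scaling and weights, no trend, a replicate block, an epithelial covariate, voom on the reads, and leaving out each library.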

Additional observations from a re-analysis of the deposited data

How the results depend on the processing

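Over 17 alternative settings Pparg ranged from 0.52 to 0.81, Nr1h3 from 0.53 to 1.118 and Vdr from 0.01 to 0.68, all above 0, and Rara and Nr1h2 stayed below 0; over the 16 that tested it, Ppara ranged from 0.21 to 1.04. With array weights 582 genes passed the adjusted threshold, among them 2 receptors, Pparg (0.79, limma adjusted p = 0.03798) and Nr1h3 (1.118, limma adjusted p = 0.03795), and 1 receptor, Rara, was lower at an unadjusted p under 0.05. Leaving out single libraries gave 0 to 14 genes past the adjusted threshold (14 without WT 1), 0 receptors among them. The same omissions left 2 to 4 receptors higher at an unadjusted p under 0.05 (2 without KO 2, KO 3, WT 2 or WT 3) and 0 to 1 lower (1 without KO 3 or WT 2). Of all 13211 genes, these omissions left 1095 (without WT 2) to 2958 (without KO 3) at that p in either direction. With the epithelial covariate 0 receptors were higher, beside 604 of all genes in either direction. The sign turned for Rarg without KO 1 (0.063) and KO 2 (0.017), with voom (0.002) and with the covariate (0.157); over single omissions it ran from -0.152 to 0.063. It turned for Rxra without KO 2 (-0.071) and WT 1 (-0.072), with array weights (-0.04) and with the covariate (-0.071), from -0.072 to 0.108 over single omissions, and with the covariate also for Rxrb (0.032) and Ppard (-0.042). The cause was not tested. The labels do not say whether same-numbered libraries were paired. Their deviations from the group means correlated at 0.004, -0.219 and -0.041, which cannot settle whether they were. With the replicate block 2 receptors were higher at an unadjusted p under 0.05, and 0 of 10 passed the adjusted threshold. Ppara and Nr1h3 rest on the fewest reads of the 10.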
